A study of Rattus norvegicus with 6 samples.

Results

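Solute carriers are a large superfamily of membrane transporters, and 204 of the 323 named on the array were measurable in dermal fibroblasts of the rat grown in culture, which secrete the collagen of skin. Solute carriers move sugars, amino acids, lactate, ions, metals, nucleosides, vitamins and nucleotide sugars across the plasma membrane and the membranes of organelles, mostly by facilitated diffusion or by coupling the uphill movement of one solute to the downhill movement of another. In fibroblasts they feed a secretory cell: amino acids and ascorbate for collagen, nucleotide sugars and sulfate for proteoglycans, and lactate export for glycolysis. The carriers were chosen by their detection. A probe counted if its RefSeq accession stood for a symbol beginning with Slc and a number, if its spots were well above the local background on all 6 arrays, and if no spot of it carried an outlier flag; the probe with the highest mean signal stood for its gene.

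The cells carried either a control lentivirus (n = 3) or one encoding a short hairpin (shRNA) that targets lnc-URIDS, a long non-coding RNA (knockdown, n = 3). Both groups had been infected at a multiplicity of infection of 10, were exposed for 48 h to puromycin at 2 µg/mL, which kills cells without the viral cassette, and grew in Dulbecco's medium with glucose at 1000 mg/L and 10% serum. The RNA of each sample was read on its own one-colour Agilent array. No probe carried a name for lnc-URIDS here, so the knockdown itself was not checked here, and the labels leave it unstated if replicates were separate cultures; p-values therefore cover only the scatter of these samples, possibly a technical one. Levels are log2 processed signals relative to the 75th percentile of the array, and a log2 fold is the knockdown mean minus the control mean. The level of one probe cannot be set against that of another, and in such bulk samples fewer cells of a type cannot be told apart from less RNA per cell.

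The arrays were alike in quality: the 75th percentile of the signal lay between 1493 and 1609 units, and 68.8% to 74.0% of the 30367 probes were well above background. Of 12 fibroblast markers, 10 were well above background on all arrays, among them the collagens Col1a1, Col1a2 and Col3a1, while Dcn and Lum, the genes of the dermal proteoglycans decorin and lumican, were so on none. The summed level of the fibroblast markers, as multiples of the 75th percentile, was 526 to 566 in the control arrays and 539 to 548 in the knockdown arrays. That sum is mostly the collagens and Fn1; of the 10 tested markers, Fap was higher at an unadjusted p under 0.05, with a log2 fold of 0.23 (SE 0.084), Pdgfra and Vim were lower at -0.51 (SE 0.13) and -0.11 (SE 0.043), and the median was -0.049. The sums for markers of keratinocytes, endothelium, leukocytes, melanocytes, adipocytes and Schwann cells were each below 0.559, and the defining leukocyte markers Ptprc, Cd3e and Itgam were above background on none. Markers of mural cells, which fibroblasts share in part, summed to 8.94 to 9.42 in the control arrays and 9.89 to 11.9 in the knockdown arrays, with 7 of 8 well above background on all arrays and Rgs5 on none. Of these 7, Mcam and Myh11 were higher at an unadjusted p under 0.05, with log2 folds of 0.77 (SE 0.15) and 0.55 (SE 0.15). Kcnj8, Abcc9 and Des were lower, at -1.32 (SE 0.33), -1.14 (SE 0.10) and -0.20 (SE 0.079), and the median of the 7 was -0.078. With another background correction (normexp) the log2 folds were 0.71 for Mcam, 0.50 for Myh11, -0.50 for Kcnj8, -0.24 for Abcc9 and 0.15 for Des. Markers of skeletal muscle summed to 1.55 to 1.79 in the control arrays and 2.12 to 2.44 in the knockdown arrays. Of these markers, 5 of 8 were well above background on all arrays and Pax7 on none. Of 6 tested, Myh1 and Myh2 were higher at an unadjusted p under 0.05, at 1.14 (SE 0.17) and 1.74 (SE 0.32), while 0 were lower. With normexp they were at 1.02 and 0.79, and the Myh2 probe cleared the background on only 2 control arrays. The part of these differences in the results that follow was not tested.

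The array named 323 solute carrier symbols through 395 probes, and 204 of them (63.2%) met the detection rule. A further 72 were well above background on no array and 34 on some arrays. Another 9 reached that level on all 6 arrays but carried an outlier flag, 3 did so on all control arrays and 2 knockdown arrays (Slc25a54, Slc4a9 and Slc52a3), and Slc30a3 did so on all knockdown arrays and 2 control arrays. Among the 9 with a flag were the glucose carrier Slc2a1, with a log2 fold of 0.012 (SE 0.071), the lysosomal sialic acid exporter Slc17a5 at -0.044 (SE 0.054) and the lysosomal histidine and peptide carrier Slc15a4 at 0.088 (SE 0.052). The dimmest gene inside the rule was the lysosomal amino acid exporter Slc36a1, whose processed signal lay between 15.2 and 18.9 units. Its level was -6.34, -6.50 and -6.38 in the control arrays and -6.63, -6.58 and -6.43 in the knockdown arrays. Just outside stood Slc52a3, a riboflavin carrier, at -6.58, -6.56 and -4.46 in the control arrays and -6.23, -6.83 and -6.82 in the knockdown arrays, where control 3 stood far above the other arrays.

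The share detected differed between substrate classes, without a test of the difference. Of the 20 carriers assigned to donors of the Golgi and endoplasmic reticulum (ER), 19 met the rule, as did 29 of 39 mitochondrial carriers, 20 of 26 for zinc, iron, copper and manganese, and 30 of 48 for amino acids. By contrast 10 of 30 carriers for organic ions and bile acids and 1 of 7 for peptides, urea and ammonium did so. From a list of 75 carriers with well-studied roles in most cells, 66 met the rule, 3 had an outlier flag, and no probe was named for 6, among them Slc25a12, Slc25a13, Slc35b3, Slc39a13 and Slc7a1. For 49 of the 66 the log2 fold was within 0.2 of 0, a count for which no share of all features was taken. Over all features tested the quartiles of the log2 fold were -0.090 and 0.064. At an unadjusted p under 0.05 by limma, 4 of the 66 were higher and 16 lower in the knockdown. Of all features tested, 5.86% were higher and 8.25% lower by that rule, and the difference was not tested.

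**Figure D1:**
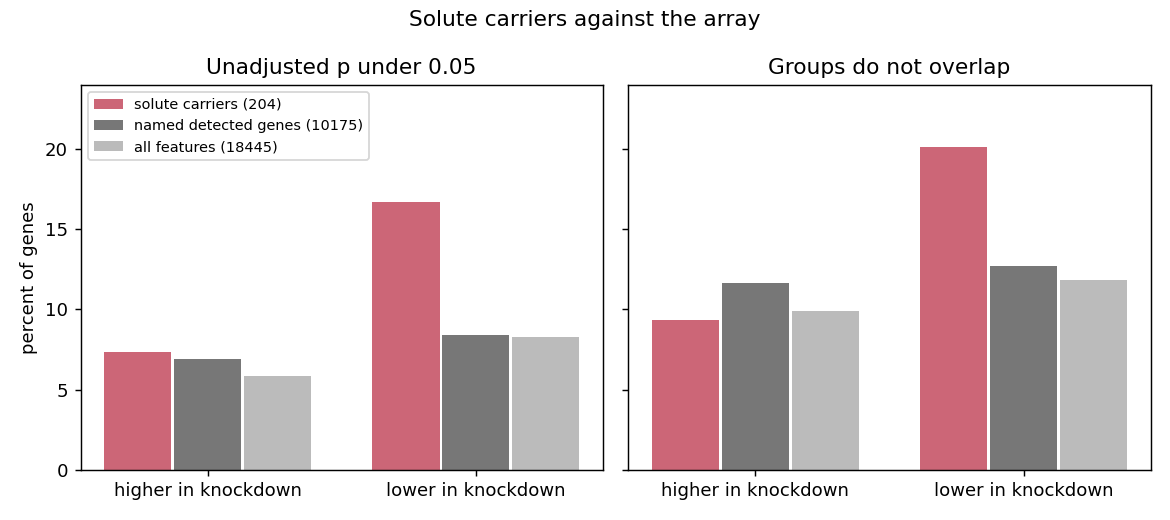
Shares of solute carriers (204 genes), of named genes that meet the same detection rule (10175) and of all features tested (18445) that were higher or lower in knockdown arrays by 2 descriptive rules, as bars in percent from 0. Lower calls at an unadjusted p under 0.05 were 16.7% of the carriers against 8.42% and 8.25%, while higher calls were 7.35% against 6.91% and 5.86%.

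No carrier passed limma's test with Benjamini-Hochberg adjustment over 18445 features at 0.05, and neither did any other feature (background 0.0%). The smallest adjusted p of a carrier was 0.196, and 0.223 with the scan as a block. Without adjustment, 15 carriers were higher (7.35%) and 34 lower (16.7%) in the knockdown at a p under 0.05; the background was 5.86% and 8.25% of all features tested, and 6.91% and 8.42% of named genes that met the same detection rule. The share of higher carriers was thus near the background, and the share of lower carriers was above it. The difference between these shares was not tested. The same 2 backgrounds apply to the counts of markers given above and to those by class and by list given later. Without knockdown 2 the carriers numbered 9 higher (4.41%, against 3.74% of all features) and 24 lower (11.8%, against 5.33%). Without knockdown 3 they numbered 8 (3.92%, against 3.32%) and 26 (12.7%, against 4.70%). The split moved with the scaling, and lower carriers outnumbered higher ones under each of the 5 scalings tried: of the carriers with an unadjusted p under 0.05, 30.6% were higher as reported, 40.4% after quantile normalization, 39.1% with arrays centred on the median, 40.0% after normexp background correction with the 75th percentile (10 higher and 15 lower) and 42.9% after normexp with quantile scaling (21 and 28). Over all features the balance turned, the same share being 41.5% as reported, 52.8% after quantile normalization, 51.6% and 52.3% with the normexp settings, and 56.6% when arrays were centred on the median.

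By the rule that all 3 arrays of one group lie above all 3 of the other, 19 carriers (9.31%) were higher and 41 (20.1%) lower in the knockdown. The background was 9.88% and 11.8% of all features, and 11.7% and 12.7% of the named genes that met the detection rule. The mean was lower in the knockdown for 117 of the 204 (57.4%), against 52.9% of all features and 52.5% of those named genes. The median log2 fold over the carriers was -0.026, against -0.0073 over all features and -0.0066 over the named genes. Regardless of sign, the median size of the log2 fold was 0.106 over the carriers, against 0.077 over all features and 0.078 over the named genes. After normexp correction the medians with sign were 0.070 over the carriers and 0.054 over all features. Of the 49 carriers with an unadjusted p under 0.05, 13 had a log2 fold after normexp correction outside the 95% confidence interval of the reported one, and all 13 were lower carriers.

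The confidence intervals of most carriers were narrow, but they cover only the scatter of these samples under the reported processing. The median SE of a log2 fold was 0.077, with a range from 0.039 to 0.44, and for 164 of the 204 the 95% confidence interval of the fold lay within 1.5-fold in either direction. Fitted folds beyond 1.5-fold numbered 7 of the 204, against 377 of 18445 features and 175 of 10175 named genes that met the detection rule. Those beyond 2-fold numbered 2, among them that of Slc7a3, against 74 and 27. In 38 genes with more than 1 probe that met the rule, the probes shared a sign in 27 and were opposite in 11.

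The file headers place control 1, control 2, knockdown 2 and knockdown 3 in one scan and control 3 and knockdown 1 in another, so that each scan held both groups. The log2 fold had the same sign in both scans for 150 carriers (73.5%), against 65.8% of all features and 67.9% of the named genes. The sign was shared by all 49 carriers with an unadjusted p under 0.05, which is in part fixed by how they were picked. Within the first scan the median over the carriers was -0.036, and within the second, with 1 array a group and hence no test, it was -0.0076. The monocarboxylate carrier family member Slc16a11 stood apart, at -0.018 in the first scan and -1.26 in the second, and its groups overlapped, with values of -5.57, -4.19 and -4.43 in the control arrays and -5.69, -4.59 and -5.21 in the knockdown arrays.

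**Figure D2:**
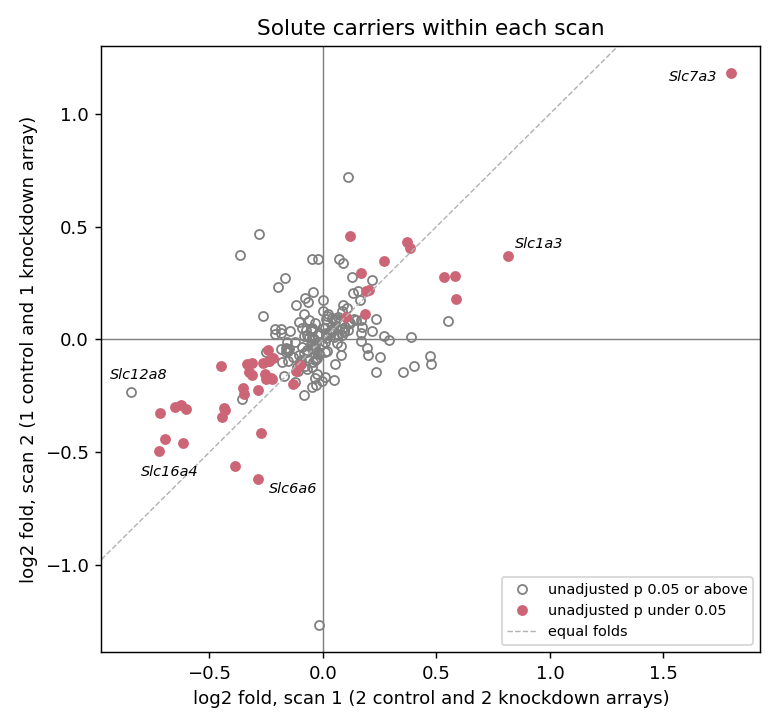
Log2 folds (knockdown minus control) of the carriers reported here in scan 1, with 2 control and 2 knockdown arrays (horizontal), and in scan 2, with 1 of each (vertical); filled points have an unadjusted p under 0.05 over all arrays and the dashed line marks equal folds. The filled points lie below or above 0 in both scans alike, and Slc7a3 lies farthest out.

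When limma weighted arrays by their fitted quality, 19 carriers (9.31%) passed at adjusted p values between 0.0473 and 0.0485, against 3.77% of all features. These were 13 lower and 6 higher carriers: Slc2a12, Slc29a2, Slc40a1, Slc38a6, Slc16a14, Slc12a2, Slc5a3, Slc7a2, Slc44a2, Slc44a1, Slc35d1 and Slc39a9 were among the lower, and Slc7a3, Slc1a3, Slc9a5, Slc38a9, Slc25a46 and Slc11a2 were higher. The weights rested on few arrays, with 3.73 for knockdown 3 and 1.87 for control 3 against 0.462 to 1.16 for the others. In the fit without weights none of the 19 passed, and they are described here by their values.

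**Figure D3:**
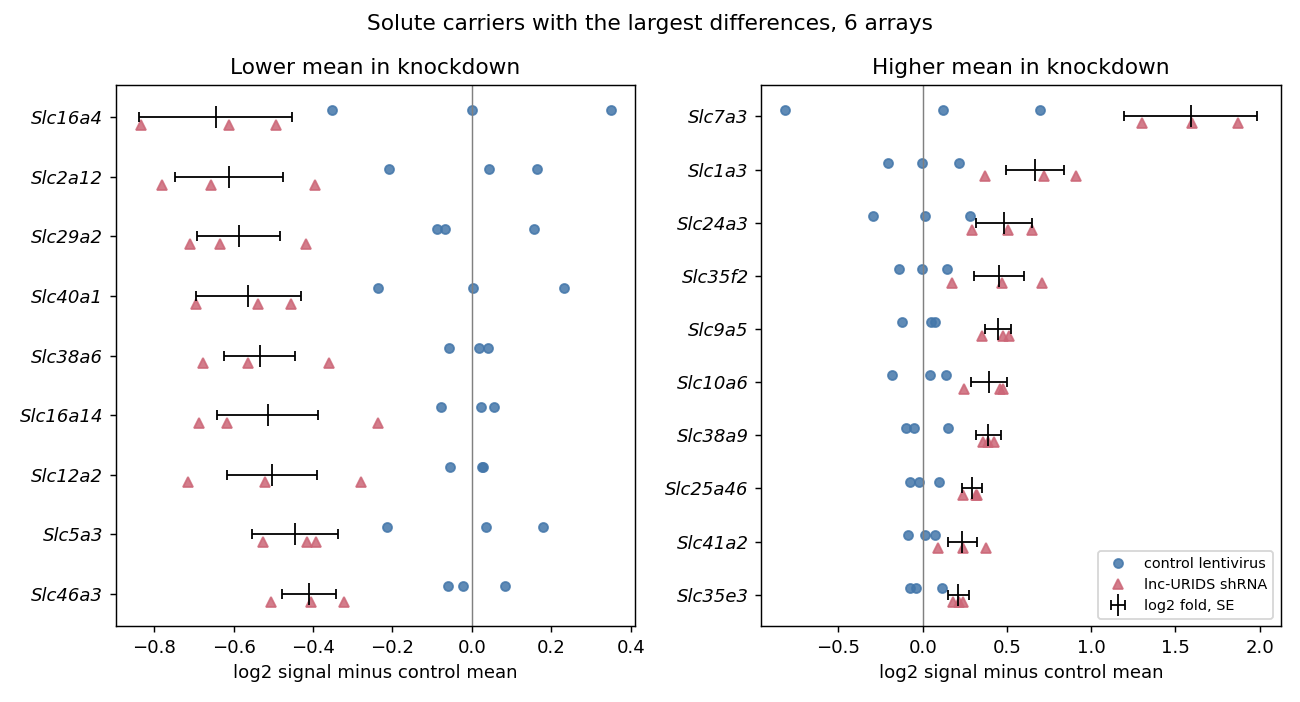
Levels of the reported carriers with the most negative and the most positive log2 folds, among those with an unadjusted p under 0.05 and groups that do not overlap, on each array as log2 signal minus the gene's control mean (horizontal); circles are control and triangles knockdown arrays, and the black cross with its bar is the log2 fold with its SE. For each gene shown all control points lie on one side of all knockdown points, by which these genes were picked, and the widest separation is that of Slc7a3.

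Promoters of 4 carriers are shown because an E-box, the element CACGTG that is read by basic helix-loop-helix factors such as Myc and the lysosomal regulator Tfeb, was found near their start sites, in 2 with a lower and 2 with a higher mean in the knockdown. The sequences are the 250 bases upstream of the gene's start in RefSeq's GRCr8 assembly, read 5′ to 3′ on the gene's strand, with the element in capitals.
Slc29a2, chr1:211757074-211757323, plus strand: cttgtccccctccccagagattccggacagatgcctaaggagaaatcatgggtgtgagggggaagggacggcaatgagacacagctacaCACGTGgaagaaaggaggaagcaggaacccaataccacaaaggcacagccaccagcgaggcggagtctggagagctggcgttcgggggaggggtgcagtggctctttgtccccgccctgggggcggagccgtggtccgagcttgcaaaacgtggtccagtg
Slc16a1, chr2:194812410-194812659, plus strand: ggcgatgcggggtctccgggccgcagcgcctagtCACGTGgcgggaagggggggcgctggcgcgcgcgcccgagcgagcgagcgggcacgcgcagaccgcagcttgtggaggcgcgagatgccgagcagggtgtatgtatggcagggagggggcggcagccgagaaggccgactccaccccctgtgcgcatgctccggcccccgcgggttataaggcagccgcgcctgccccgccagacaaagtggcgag
Slc9a5, chr19:50136490-50136739, plus strand: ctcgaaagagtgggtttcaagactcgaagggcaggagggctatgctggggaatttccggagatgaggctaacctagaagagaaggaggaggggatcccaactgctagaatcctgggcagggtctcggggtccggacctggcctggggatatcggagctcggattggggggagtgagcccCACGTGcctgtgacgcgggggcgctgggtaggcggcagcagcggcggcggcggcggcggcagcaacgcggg
Slc10a6, chr14:6385325-6385574, plus strand: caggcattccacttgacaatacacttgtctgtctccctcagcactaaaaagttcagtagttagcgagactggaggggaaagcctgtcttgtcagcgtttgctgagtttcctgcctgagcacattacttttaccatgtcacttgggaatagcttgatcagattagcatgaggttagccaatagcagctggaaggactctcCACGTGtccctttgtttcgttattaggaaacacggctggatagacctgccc
The first base of the element lay 161 bases upstream of the start in Slc29a2, 216 in Slc16a1, 71 in Slc9a5 and 51 in Slc10a6. Among the 157 carriers whose promoter was in the RefSeq table, 25 (15.9%) held CACGTG, a palindrome that reads alike on both strands, against 679 of 8371 named genes that met the detection rule (8.11%) and 1591 of 27457 promoters in all (5.79%). Of 30 carriers with a lower mean at an unadjusted p under 0.05 the element was in 3, and of 11 with a higher mean also in 3. The antioxidant response element, searched as TGACNNNGC on both strands, was in 30 of the 157 (19.1%), against 12.5% and 10.2% in the same populations. The element read by Atf4 in amino acid shortage, searched as TGATGNAA on both strands, was in 5 (3.18%), against 2.03% and 3.27%. The 3 patterns were searched separately, so matches to different patterns may overlap, and a match is a description of the sequence only.

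**Figure D4:**
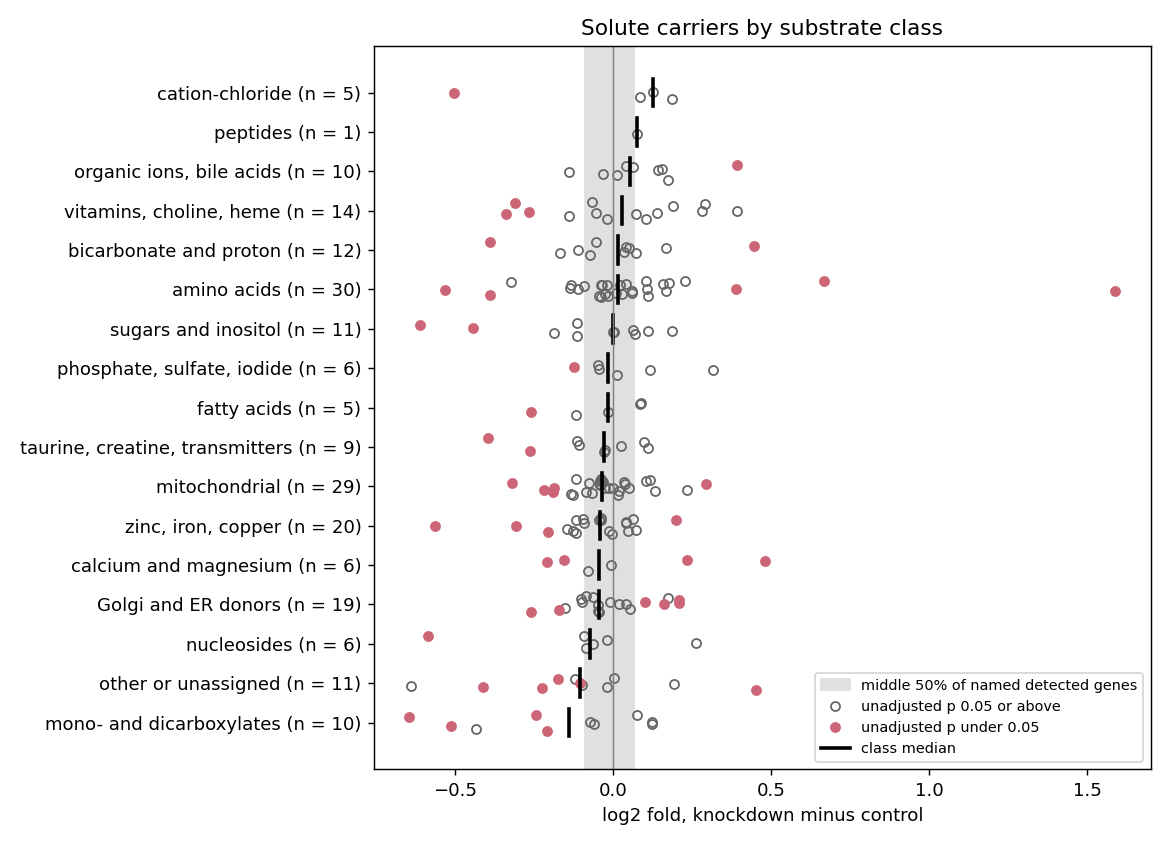
Log2 folds (knockdown minus control) of the carriers by substrate class, 1 point per gene reported here, with a black bar at the class median and a grey band over the middle 50% of named genes that meet the detection rule. Class medians run from -0.14 for the mono- and dicarboxylate carriers to 0.13 for the cation-chloride cotransporters, and single genes lie far outside their classes, such as Slc7a3 at 1.59. The numbers and medians of the classes include carriers that are not drawn.

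Of 10 carriers of organic ions and bile acids, 1 was higher and 1 lower at an unadjusted p under 0.05, and the median was 0.053. Slc10a6 (Soat), which takes up sulfated steroids, had a level of -5.93, -5.60 and -5.70 in the control arrays and -5.27, -5.29 and -5.50 in the knockdown arrays. The groups were apart, and the log2 fold was 0.39 (SE 0.11, adjusted p = 0.226). The probe was dim, at a processed signal of 24.6 to 39.2 units after background subtraction, where the median local background was 20 to 26 units. The carnitine carrier Slc22a5 was at 0.064 (SE 0.067).

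The amino acid carriers held the most positive folds. Of 30, 3 were higher and 2 lower at an unadjusted p under 0.05, and the median log2 fold was 0.015. Slc7a3 (Cat-3), a carrier of arginine, lysine and ornithine, had a level of -1.96, -3.47 and -2.53 in the control arrays and -1.35, -0.78 and -1.05 in the knockdown arrays. All 3 knockdown arrays lay above all controls, and the controls differed among themselves (SD 0.76, against 0.28 in the knockdown). The log2 fold was 1.59 (SE 0.39, adjusted p = 0.207), a knockdown level at 3.01 times the control level (95% confidence interval 1.53 to 5.91). The near-identical gene Slc7a3l1, whose transcripts the probes may share, had a log2 fold of -0.027 (SE 0.11). Slc1a3 (Glast), the glial-type glutamate and aspartate transporter, was at -1.51, -1.93 and -1.72 in the control arrays and -1.35, -0.81 and -0.997 in the knockdown arrays, without overlap, and its log2 fold was 0.67 (SE 0.17, adjusted p = 0.216); a second probe gave 0.57.

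The lysosomal arginine sensor Slc38a9, which signals amino acid supply to mTORC1, had a level of -3.38, -3.62 and -3.57 in the control arrays and -3.17, -3.10 and -3.13 in the knockdown arrays and a log2 fold of 0.39 (SE 0.075, adjusted p = 0.196). Lower means were those of Slc38a6, of the sodium-coupled neutral amino acid transporter family, and of Slc7a2 (Cat-2), a cationic amino acid carrier that supplies arginine to nitric oxide synthase. Slc38a6 was at -0.97, -0.95 and -1.04 in the control arrays and -1.34, -1.66 and -1.55 in the knockdown arrays, a log2 fold of -0.53 (SE 0.090, adjusted p = 0.196), and its second probe gave -0.69. Slc7a2 was at -3.76, -3.46 and -3.68 in the control arrays and -3.99, -3.99 and -4.09 in the knockdown arrays, with a log2 fold of -0.39 (SE 0.088, adjusted p = 0.197), or -0.092 after normexp correction. In each of these 3 genes all arrays of one group lay above all of the other. The 2 arginine carriers of the Cat family thus had means that differed in opposite directions.

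The main amino acid uptake and exchange routes of growing cells, and the proton-coupled carriers Slc36a1 and Slc36a4, had log2 folds of -0.32 to 0.18. Log2 folds were 0.16 (SE 0.10) for the large neutral amino acid exchanger Slc7a5 (Lat1), 0.060 (SE 0.10) for its heavy chain Slc3a2, 0.18 (SE 0.076) for the cystine and glutamate exchanger Slc7a11 and 0.039 (SE 0.15) for the glutamine exchanger Slc1a5. They were -0.091 and -0.11 for the sodium-coupled neutral amino acid carriers Slc38a1 and Slc38a2, -0.13 for the serine and alanine exchanger Slc1a4, 0.059 for the glycine transporter Slc6a9, and -0.14 and -0.32 for the proton-coupled carriers Slc36a1 and Slc36a4. None of these 10 passed limma's test, and by the brightest probe none had an unadjusted p under 0.05. A second, dimmer Slc36a4 probe gave -0.19 (SE 0.059, unadjusted p = 0.018 by limma), with all its knockdown arrays below all controls. Of 19 genes of the amino acid response, which Atf4 drives when amino acids run short, 2 were higher at an unadjusted p under 0.05 and 0 lower, with a median of 0.0020. Phgdh, the first enzyme of serine synthesis, was at 3.83, 3.67 and 3.80 in the control arrays and 4.03, 4.03 and 4.04 in the knockdown arrays, without overlap and with a log2 fold of 0.27 (SE 0.056, adjusted p = 0.196); the translation inhibitor Eif4ebp1 was at 0.12 (SE 0.047). Atf4 itself was at 0.097, the asparagine synthetase Asns at 0.15 and the pseudokinase Trib3 at 0.029.

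Among 11 carriers of sugars and inositol, 2 were lower at an unadjusted p under 0.05 and 0 higher, and the median log2 fold was -0.00072. Slc2a12 (Glut12), a facilitative glucose carrier, had a level of -2.63, -2.25 and -2.37 in the control arrays and -2.81, -3.20 and -3.07 in the knockdown arrays and a log2 fold of -0.61 (SE 0.14, adjusted p = 0.196); a second probe gave -0.62. Slc5a3 (Smit1), which imports myo-inositol with sodium, was at -0.86, -0.46 and -0.61 in the control arrays and -1.17, -1.04 and -1.06 in the knockdown arrays, with a log2 fold of -0.44 (SE 0.11, adjusted p = 0.206). The groups of both genes were apart. The facilitative glucose carriers Slc2a3 (Glut3), Slc2a6 and Slc2a8 were at 0.062 (SE 0.093), 0.19 (SE 0.087) and -0.11 (SE 0.062). Of 12 tested genes of glucose use, 2 were higher and 1 lower at an unadjusted p under 0.05. The lactate dehydrogenase subunit Ldhb was at -0.34, -0.53 and -0.41 in the control arrays and -0.11, 0.010 and -0.059 in the knockdown arrays, a log2 fold of 0.38 (SE 0.066, adjusted p = 0.196). The phosphofructokinase Pfkp had a log2 fold of 0.23 (SE 0.059) and the glucose-6-phosphate isomerase Gpi one of -0.23 (SE 0.076). The hexokinases Hk1 and Hk2 were at 0.021 and -0.090.

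The mono- and dicarboxylate carriers had the most negative median of the 17 classes, -0.14 over 10 genes, with 4 lower and 0 higher at an unadjusted p under 0.05; after normexp correction the median was 0.014. Slc16a1 (Mct1), which carries lactate, pyruvate and ketone bodies with a proton, was at -0.60, -0.53 and -0.60 in the control arrays and -0.70, -0.91 and -0.85 in the knockdown arrays, a log2 fold of -0.24 (SE 0.066, adjusted p = 0.226). Slc16a7 (Mct2), a lactate and pyruvate carrier of higher affinity, was at 0.13, 0.40 and 0.28 in the control arrays and 0.11, 0.018 and 0.055 in the knockdown arrays, a log2 fold of -0.21 (SE 0.078, adjusted p = 0.326). The groups of both were apart, by a narrow margin in Slc16a7 (0.13 in control 1 and 0.11 in knockdown 1). Slc16a3 (Mct4), the lactate exporter of glycolytic cells, had a log2 fold of -0.061 (SE 0.18) and overlapping groups. Basigin (Bsg), the chaperone that brings Mct1 and Mct4 to the surface, was at 2.18, 1.91 and 2.00 in the control arrays and 1.91, 1.66 and 1.76 in the knockdown arrays, and its log2 fold was -0.25 (SE 0.097, adjusted p = 0.335). The ranges of Bsg met at 1.91, in control 2 and knockdown 1.

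Slc16a4 and Slc16a14, monocarboxylate family members whose substrates are less settled, had lower means as well. Slc16a4 was at -3.02, -2.32 and -2.67 in the control arrays and -3.16, -3.50 and -3.28 in the knockdown arrays, a log2 fold of -0.65 (SE 0.19, adjusted p = 0.245), and Slc16a14 was at -3.78, -3.68 and -3.65 in the control arrays and -3.94, -4.39 and -4.32 in the knockdown arrays, a log2 fold of -0.51 (SE 0.13, adjusted p = 0.207). The arrays of both groups were apart in each. After normexp correction the folds were -0.38 and -0.15.

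Some of the carriers for chloride and osmolytes had groups that were apart. Slc12a2 (Nkcc1), which brings sodium, potassium and chloride into the cell, was at 0.56, 0.48 and 0.57 in the control arrays and 0.26, -0.17 and 0.019 in the knockdown arrays, a log2 fold of -0.50 (SE 0.11, adjusted p = 0.197). All control arrays lay above all knockdown arrays. A brighter Slc12a2 probe, with an outlier flag on 3 arrays, gave -0.40 (SE 0.12). The potassium and chloride exporter Slc12a4 (Kcc1) had a log2 fold of 0.083 (SE 0.044). Over the 5 cation-chloride cotransporters the median was 0.13, with 1 gene higher and 1 lower at an unadjusted p under 0.05.

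Slc6a6, the taurine transporter, was at 1.99, 2.30 and 2.23 in the control arrays and 1.62, 1.92 and 1.80 in the knockdown arrays, a log2 fold of -0.39 (SE 0.11, adjusted p = 0.235). Slc6a8, the creatine transporter, was at 0.65, 0.72 and 0.63 in the control arrays and 0.49, 0.30 and 0.43 in the knockdown arrays, a log2 fold of -0.26 (SE 0.064, adjusted p = 0.206). In both genes all control arrays lay above all knockdown arrays, and in the class of osmolyte and neurotransmitter carriers, of 9 genes, 2 were lower and 0 higher at an unadjusted p under 0.05. Slc5a3, Slc6a6 and Slc12a2 are known targets or effectors of the response to hypertonic stress. A list of 12 genes of that response, chosen after these values were seen, had 11 tested members, of which 9 had lower means (81.8%, against 52.9% of all features), those 3 carriers among them. The share in the list is in part fixed by that choice and is no test of the response. By unadjusted p under 0.05, 3 were lower, the carriers for which the list was drawn up, and 1 was higher, the chaperone Hspa4l at 0.44 (SE 0.12). The aldose reductase Akr1b1, which makes sorbitol, was at -0.12 (SE 0.065), and the transcription factor Nfat5 at 0.070 (SE 0.054).

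Of 12 carriers of bicarbonate and protons, 1 was higher and 1 lower at an unadjusted p under 0.05. Slc4a4 (NBCe1), which moves sodium with bicarbonate, was at 0.62, 0.84 and 0.89 in the control arrays and 0.58, 0.22 and 0.37 in the knockdown arrays, a log2 fold of -0.39 (SE 0.12, adjusted p = 0.248), and a second probe gave -0.66. Slc9a5 (Nhe5), a sodium and proton exchanger of endosomes known from brain, was at -3.20, -3.38 and -3.17 in the control arrays and -2.90, -2.74 and -2.77 in the knockdown arrays, a log2 fold of 0.45 (SE 0.076, adjusted p = 0.196). The groups were apart in both. The anion exchanger Slc4a2 was at 0.073 (SE 0.077) and the bicarbonate cotransporter Slc4a7 at -0.074 (SE 0.082). Nherf1 (the scaffold of exchangers and other carriers at the membrane) was at -1.29, -1.42 and -1.44 in the control arrays and -1.56, -2.08 and -1.80 in the knockdown arrays, without overlap and with a log2 fold of -0.43 (SE 0.14, adjusted p = 0.262); it and Bsg were the 2 of 10 tested accessory subunits that were lower at an unadjusted p under 0.05, and 0 were higher.

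Of 6 calcium and magnesium carriers, 4 had an unadjusted p under 0.05, 2 in each direction. Slc24a3 (Nckx3), which exports calcium in exchange for sodium together with potassium, was at 0.96, 0.39 and 0.70 in the control arrays and 0.98, 1.33 and 1.19 in the knockdown arrays, a log2 fold of 0.48 (SE 0.17, adjusted p = 0.297). The sodium and calcium exchanger Slc8a1 (Ncx1) was at -2.68, -2.77 and -2.77 in the control arrays and -2.97, -2.83 and -2.89 in the knockdown arrays, a log2 fold of -0.15 (SE 0.056, adjusted p = 0.314), its other probes gave -0.19 and -0.23, and normexp correction gave -0.013. In both genes the groups were apart, by a narrow margin in Slc24a3 (0.96 in control 1 and 0.98 in knockdown 1), and the 2 calcium exporters had opposite signs. The magnesium carriers were at 0.23 (SE 0.086) for Slc41a2, -0.21 (SE 0.069) for Slc41a3 and -0.080 (SE 0.076) for Slc41a1. A brighter Slc41a1 probe, with an outlier flag on 1 array, gave -0.13 (SE 0.050, unadjusted p = 0.046 by limma). All its knockdown arrays lay below all controls. Of 29 tested ion pumps, which set the gradients these carriers run on, 1 was higher and 3 lower at an unadjusted p under 0.05. The copper pump Atp7a was at -0.24 (SE 0.070), the sodium pump subunit Atp1b1 at -0.22 (SE 0.079) and the proton pump subunits Atp6v0d1 and Atp6v1e1 at -0.13 (SE 0.041) and 0.12 (SE 0.039).

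The metal carriers included the iron exporter. Slc40a1 (ferroportin), the route by which iron leaves cells, was at -3.45, -2.98 and -3.21 in the control arrays and -3.67, -3.75 and -3.91 in the knockdown arrays, without overlap. Its log2 fold was -0.56 (SE 0.13, adjusted p = 0.205), a knockdown level at 0.677 times the control level (95% confidence interval 0.54 to 0.849), and a second probe gave -0.52. After normexp correction the log2 fold was -0.23, outside the interval. The iron importer Slc11a2 (Dmt1) was at -0.94, -1.01 and -1.03 in the control arrays and -0.82, -0.79 and -0.78 in the knockdown arrays, with its knockdown arrays all above the controls and a log2 fold of 0.20 (SE 0.044, adjusted p = 0.196); a second probe gave the opposite sign, -0.086. Slc31a1 (Ctr1), the copper importer, was at -0.61, -0.40 and -0.38 in the control arrays and -0.59, -0.83 and -0.88 in the knockdown arrays, a log2 fold of -0.31 (SE 0.10, adjusted p = 0.286), and its ranges overlapped no further than control 1 and knockdown 1, at -0.61 and -0.59. The zinc carrier Slc39a9 (Zip9) was at -3.18, -3.15 and -3.13 in the control arrays and -3.31, -3.41 and -3.36 in the knockdown arrays, a log2 fold of -0.21 (SE 0.045, adjusted p = 0.196) and of -0.053 after normexp correction.

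Over the 20 metal carriers 1 was higher and 3 lower at an unadjusted p under 0.05, with a median of -0.042. The zinc exporter Slc30a1 was at -0.13 (SE 0.058), Slc30a5 and Slc30a7, which load zinc into the secretory pathway, at -0.12 (SE 0.069) and -0.096 (SE 0.044), and the importers Slc39a1, Slc39a6, Slc39a7 and Slc39a14 between -0.045 and -0.0050. Of 19 tested genes of metal handling, 15 had lower means (78.9%, against 52.9% of all features), and 3 were lower (15.8%) and 1 higher (5.26%) at an unadjusted p under 0.05, against 8.25% and 5.86%. Heme oxygenase Hmox1, which frees iron from heme, was at 0.17, 0.41 and 0.24 in the control arrays and -0.035, -0.14 and -0.037 in the knockdown arrays, without overlap and with a log2 fold of -0.35 (SE 0.075, adjusted p = 0.196). The metalloreductases Steap1 and Steap2 were at -0.57 (SE 0.14) and -0.16 (SE 0.058), the transferrin receptor Tfrc at 0.18 (SE 0.066), and the ferritin chains Fth1 and Ftl1 at -0.23 and -0.10.

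Of 29 mitochondrial carriers, 1 was higher and 4 were lower at an unadjusted p under 0.05, and the median was -0.036. Slc25a46, an outer membrane protein of mitochondrial dynamics, was at 1.24, 1.07 and 1.12 in the control arrays and 1.47, 1.39 and 1.47 in the knockdown arrays, a log2 fold of 0.29 (SE 0.060, adjusted p = 0.196). Slc25a4 (Ant1), which exchanges ADP for ATP, was at 4.14, 4.32 and 4.24 in the control arrays and 4.08, 3.97 and 3.98 in the knockdown arrays, a log2 fold of -0.22 (SE 0.064, adjusted p = 0.239). The groups of both were apart, while the second adenine nucleotide translocase of fibroblasts, Slc25a5 (Ant2), was at -0.026 (SE 0.046) and overlapped. The dicarboxylate carrier Slc25a10 was at -0.19 (SE 0.051), with -0.048 after normexp correction, Slc25a30 at -0.19 (SE 0.064) and Slc25a35 at -0.32 (SE 0.10). Log2 folds were -0.12 for the citrate carrier Slc25a1, -0.036 for the phosphate carrier Slc25a3, -0.042 for the oxoglutarate carrier Slc25a11, -0.040 for the carnitine and acylcarnitine carrier Slc25a20 and -0.086 for mitoferrin Slc25a37. None of these 5 had an unadjusted p under 0.05.

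Among the 19 Golgi and ER carriers, which bring nucleotide sugars, sulfate donors and acetyl-CoA to the enzymes that modify matrix proteins, 4 were higher and 2 lower at an unadjusted p under 0.05. Slc35d1, which supplies precursors of chondroitin sulfate, was at -2.41, -2.39 and -2.49 in the control arrays and -2.60, -2.77 and -2.71 in the knockdown arrays, without overlap, a log2 fold of -0.26 (SE 0.060, adjusted p = 0.203) and -0.18 by a second probe. Slc33a1, the acetyl-CoA carrier, was at -0.17 (SE 0.054). The carrier of UDP-galactose, Slc35a2, was at 1.13, 1.32 and 1.25 in the control arrays and 1.37, 1.44 and 1.39 in the knockdown arrays, also apart, with a log2 fold of 0.16 (SE 0.062, adjusted p = 0.333). The less characterised family members Slc35e3, Slc35a5 and Slc35a4 were at 0.21 (SE 0.062), 0.21 (SE 0.083) and 0.10 (SE 0.039). For the sulfate donor carrier Slc35b2, the sialic acid donor carrier Slc35a1, the GDP-fucose carrier Slc35c1, the ER nucleotide carrier Slc35b1 and the glucose-6-phosphate carrier Slc37a4, log2 folds lay between -0.086 and 0.040, and no p was under 0.05. The sulfate importer Slc26a2, which feeds the same pathway from outside, was at -0.049 (SE 0.098).

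Of 6 nucleoside carriers, 1 was lower at an unadjusted p under 0.05. Slc29a2 (Ent2), an equilibrative carrier of nucleosides and nucleobases whose promoter is shown above, was at -2.60, -2.38 and -2.62 in the control arrays and -2.95, -3.24 and -3.17 in the knockdown arrays. The groups were apart, and the log2 fold was -0.59 (SE 0.10, adjusted p = 0.196), a knockdown level at 0.666 times the control level (95% confidence interval 0.556 to 0.797), and -0.30 after normexp correction, outside that interval. Slc29a1 (Ent1), the other equilibrative carrier of the plasma membrane, was at -0.092 (SE 0.14) with overlapping groups. Of 5 fatty acid carriers, Slc27a1, a fatty acid importer with acyl-CoA synthetase activity, was at -1.64, -1.82 and -1.77 in the control arrays and -1.92, -2.10 and -1.99 in the knockdown arrays, apart, with a log2 fold of -0.26 (SE 0.073, adjusted p = 0.232), while Slc27a4 was at 0.087 (SE 0.085).

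Of 14 carriers for vitamins, choline and heme, 3 were lower and 0 higher at an unadjusted p under 0.05, with a median of 0.027. The choline carriers Slc44a1 and Slc44a2 were both lower in every knockdown array than in any control. Slc44a1 was at -2.40, -2.53 and -2.48 in the control arrays and -2.72, -2.80 and -2.82 in the knockdown arrays, a log2 fold of -0.31 (SE 0.054, adjusted p = 0.196). Slc44a2 was at -3.21, -3.13 and -3.28 in the control arrays and -3.40, -3.62 and -3.62 in the knockdown arrays, a log2 fold of -0.34 (SE 0.080, adjusted p = 0.206), with -0.35 by a second probe and -0.036 after normexp correction. The proton-coupled folate carrier Slc46a1 was at -2.70, -2.75 and -2.71 in the control arrays and -2.94, -3.08 and -2.94 in the knockdown arrays, also apart, with a log2 fold of -0.27 (SE 0.055, adjusted p = 0.196) and of -0.094 after normexp correction, while the reduced folate carrier Slc19a1 was at 0.14 (SE 0.086). The ascorbate importer Slc23a2, which serves the hydroxylases of collagen, was at 0.10 (SE 0.13), the thiamine carrier Slc19a2 at -0.054 (SE 0.050) and the heme carrier Slc48a1 at -0.14 (SE 0.18). A second, dimmer Slc19a2 probe gave -0.24 (SE 0.052), with all its knockdown arrays below all controls.

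The 6 carriers of phosphate, sulfate and other anions held 1 gene with an unadjusted p under 0.05, the iodide importer Slc5a5, at -5.63, -5.58 and -5.57 in the control arrays and -5.71, -5.73 and -5.72 in the knockdown arrays and with a log2 fold of -0.13 (SE 0.041, adjusted p = 0.276). That probe was dim, at 28.6 to 33.7 units on all arrays, and the sign turned after normexp correction, to 0.26. The phosphate importers Slc20a1 and Slc20a2 were at 0.012 (SE 0.063) and 0.12 (SE 0.083). The peptide and histidine carrier Slc15a3, the only peptide carrier that met the rule, was at 0.077 (SE 0.081). Of 11 further carriers of other or unassigned substrates, 1 was higher and 4 lower at an unadjusted p under 0.05. Slc35f2 was at -1.03, -1.31 and -1.18 in the control arrays and -0.999, -0.47 and -0.70 in the knockdown arrays, apart, with a log2 fold of 0.45 (SE 0.15, adjusted p = 0.28). The lysosomal carrier Slc46a3 was at -5.64, -5.75 and -5.79 in the control arrays and -6.13, -6.23 and -6.05 in the knockdown arrays, apart, with a log2 fold of -0.41 (SE 0.068, adjusted p = 0.196), and its sign turned as well, to 0.17 after normexp correction, at a signal of 20.1 to 29.9 units. Slc35f6 was at -0.23 (SE 0.065) and Slc10a7 at -0.11 (SE 0.042), whose sign turned to 0.016 after normexp correction, while Slc7a6os at -0.18 (SE 0.066) is no carrier and has its symbol from its place on the opposite strand to Slc7a6.

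Of 41 transporters of the same series under other names 29 were tested, and 6 were higher (20.7%) and 3 lower (10.3%) at an unadjusted p under 0.05, against 5.86% and 8.25% of all features, with a median of -0.020. Mfsd2a, which imports lysophosphatidylcholine with omega-3 fatty acids, was at -3.50, -3.78 and -3.62 in the control arrays and -3.34, -2.62 and -3.01 in the knockdown arrays, a log2 fold of 0.65 (SE 0.19, adjusted p = 0.241). The mitochondrial uncoupling protein Ucp2 was at -5.76, -6.31 and -5.96 in the control arrays and -5.50, -5.27 and -5.38 in the knockdown arrays, a log2 fold of 0.63 (SE 0.15, adjusted p = 0.206); its probe cleared the background on 3 knockdown but only 2 control arrays, and the log2 fold was 0.48 after normexp correction and 0.20 with quantile scaling after it. The mitochondrial serine carrier Sfxn1 was at 0.73, 0.89 and 0.85 in the control arrays and 0.62, 0.49 and 0.52 in the knockdown arrays, a log2 fold of -0.28 (SE 0.061, adjusted p = 0.196). In all 3 the groups were apart. The organic anion carriers Slco3a1 and Slco5a1 were at 0.25 (SE 0.094) and 0.35 (SE 0.10), the choline and heme carrier Flvcr2 at 0.21 (SE 0.075), the mitochondrial protein Mtch1 at 0.14 (SE 0.045), Letm1 of the mitochondrial inner membrane at -0.17 (SE 0.068) and the magnesium transporter Magt1 at -0.14 (SE 0.048).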

How the data were processed

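RNA from 6 samples of fibroblasts was measured on one-colour Agilent arrays (Cy3), 1 array per sample, and samples were grouped by their titles. The authors deposited each array's scanner output, in which intensity is on a linear scale, background-subtracted by the scanner software, Agilent Feature Extraction (the submitters' processing notes name version 11.0.0.1, the headers 11.0.1.1), and not normalized between arrays. Control spots and outlier-flagged spots were left out. The log2 of the processed intensity minus the array's 75th percentile was averaged over the spots of a probe. Probes were named by RefSeq accession through RefSeq's GRCr8 table, which served only for names and promoters since the array's design used another build: 18005 of 30367 probes matched, for 15168 symbols. Testing took probes that stood well above background throughout either group (20755 probes). A gene was represented by its brightest probe that met the detection rule, or else by its brightest tested probe (18445 features). The comparison used lmFit and eBayes of limma 3.58.1 (R 4.3.3; moderated SE, Benjamini-Hochberg adjustment over all features); the fit was tested on simulated data.

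A few genes are not reported here by name; counts and medians include them. Substrate classes followed family numbers, with exceptions by gene. Members, classes, lists and alternatives were chosen with earlier results of these data known, and the list of osmotic response genes after the values given here. Named were carriers with an adjusted p under 0.05, the 10 most negative and 10 most positive folds with an unadjusted p under 0.05 and groups apart, the smallest p per class and direction, the 66 well-studied carriers by value or range, and the smallest p per direction in other lists; further genes named were chosen after their values were seen. Alternatives were quantile or median scaling, normexp correction (offset 50), an intensity trend, other filters, averaged probes, array weights, blocks on replicate or scan, each scan alone and leaving out each array. Replicate numbers did not pair the samples: the deviations of same-numbered samples correlated at 0.097, 0.26 and -0.29 over features.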

Additional observations from a re-analysis of the deposited data

How the results depend on the processing

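With array weights 19 carriers (9.31%, against 3.77% of all features) passed at an adjusted p under 0.05. At an unadjusted p under 0.05, 29 were higher (14.2%, against 11.1%). After normexp with the 75th percentile 15 were lower at an unadjusted p under 0.05 (7.35%, against 3.42% of all features). With that setting 22 had all knockdown arrays below all controls, a count for which no share of all features was taken. The median log2 fold over the carriers was 0.070 after normexp with the 75th percentile and -0.056 with array weights. No carrier passed under any setting other than array weights.

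A class median is listed where it moved by more than 1 SD of the class between arrays of a group; smaller moves, some of which changed the sign of a median near 0, are left out. After normexp with the 75th percentile, class medians of the log2 fold that moved were 0.097 (bicarbonate and proton), 0.14 (amino acid), 0.15 (calcium and magnesium), 0.014 (carboxylate), 0.18 (fatty acid), 0.0049 (Golgi and ER), 0.14 (nucleoside), 0.23 (organic ion and bile acid), 0.083 (osmolyte and neurotransmitter), 0.11 (other), 0.30 (peptide), 0.14 (phosphate and sulfate) and 0.13 (sugar). After quantile normalization, class medians of the log2 fold that moved were -0.0031 (calcium and magnesium) and -0.018 (Golgi and ER). With arrays centred on their median, class medians of the log2 fold that moved were -0.020 (calcium and magnesium) and -0.013 (mitochondrial). After normexp with quantile scaling, class medians of the log2 fold that moved were -0.014 (calcium and magnesium), -0.020 (Golgi and ER), -0.021 (mitochondrial) and -0.052 (other). With array weights, class medians of the log2 fold that moved were -0.073 (calcium and magnesium), -0.26 (fatty acid), 0.036 (Golgi and ER), -0.088 (metal), -0.17 (nucleoside), -0.14 (osmolyte and neurotransmitter) and -0.046 (vitamin). Within scan 1, class medians of the log2 fold that moved were -0.027 (calcium and magnesium), -0.12 (osmolyte and neurotransmitter) and -0.16 (other). With the mean of a gene's probes, class medians of the log2 fold that moved were 0.064 (cation-chloride). Within scan 2, class medians of the log2 fold that moved were 0.057 (cation-chloride), -0.010 (Golgi and ER), 0.0033 (mitochondrial), -0.045 (other), -0.054 (sugar) and -0.081 (vitamin).

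When each array was left out in turn, the count of higher carriers at an unadjusted p under 0.05 ranged from 8 (without knockdown 3) to 20 (without knockdown 1). These were 3.92% and 9.80% of the carriers, against 3.32% and 6.15% of all features in the same fits. Medians ranged over -0.054 to -0.0045 (all carriers), -0.066 to -0.0070 (calcium and magnesium), -0.26 to -0.13 (carboxylate), 0.075 to 0.13 (cation-chloride), -0.063 to -0.00072 (Golgi and ER), -0.093 to -0.051 (metal), -0.045 to -0.018 (mitochondrial), -0.14 to 0.11 (osmolyte and neurotransmitter), -0.099 to 0.014 (sugar) and -0.029 to 0.038 (vitamin). Log2 folds of single genes near 0 that changed sign ranged over -0.26 to 0.090 (Slc16a3), -0.11 to 0.19 (Slc1a5), -0.044 to 0.060 (Slc20a1), -0.082 to 0.0031 (Slc25a20), -0.077 to 0.019 (Slc25a3), -0.13 to 0.015 (Slc26a2), -0.23 to 0.050 (Slc29a1), -0.0018 to 0.14 (Slc2a3), -0.038 to 0.025 (Slc35b1), -0.029 to 0.081 (Slc35c1), -0.032 to 0.027 (Slc39a1), -0.10 to 0.018 (Slc39a14), -0.081 to 0.026 (Slc39a6), -0.030 to 0.15 (Slc3a2), -0.28 to 0.0014 (Slc48a1), -0.024 to 0.14 (Slc6a9) and -0.12 to 0.058 (Slc7a3l1).

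After normexp with the 75th percentile 46 of the 204 carriers changed sign; single genes are listed here where the rule named them, where their unadjusted p was under 0.05, or where the text gives their value. After normexp with the 75th percentile, the log2 folds that changed sign were 0.016 (Slc10a7), 0.044 (Slc16a11), 0.11 (Slc16a3), -0.0061 (Slc20a1), 0.0027 (Slc25a37), 0.20 (Slc26a2), 0.15 (Slc2a8), 0.072 (Slc30a1), 0.32 (Slc36a1), 0.20 (Slc41a1), 0.17 (Slc46a3), 0.26 (Slc5a5) and 0.14 (Slc7a3l1). With array weights, the log2 folds that changed sign were -0.025 (Slc15a3), -0.012 (Slc22a5), -0.060 (Slc23a2), 0.036 (Slc25a20), 0.050 (Slc35b1), 0.016 (Slc39a1) and 0.0018 (Slc39a7). After normexp with quantile scaling, the log2 folds that changed sign were 0.00038 (Slc16a3), -0.027 (Slc18a1) and 0.024 (Slc35b1). Within scan 2, the log2 folds that changed sign were 0.022 (Slc1a4), -0.038 (Slc20a2), 0.042 (Slc25a3), 0.0033 (Slc25a5), 0.052 (Slc39a14), 0.020 (Slc39a6), 0.10 (Slc48a1), -0.072 (Slc49a3) and 0.013 (Slc7a3l1). Within scan 1, the log2 folds that changed sign were 0.0099 (Slc26a2) and 0.019 (Slc39a1). With arrays centred on their median, the log2 folds that changed sign were 0.014 (Slc35b1) and 0.018 (Slc39a1). After quantile normalization, the log2 folds that changed sign were 0.012 (Slc7a3l1). The cause of these changes was not tested.

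With the replicate number as a block, 0 carriers passed limma's test with adjustment. At an unadjusted p under 0.05, 17 were higher (8.33%, against 4.60% of all features) and 27 lower (13.2%, against 7.76%). Of the 204 carriers, 100 kept the sign of the log2 fold under all 19 alternatives. Counts of groups apart were not computed with fewer arrays, where separation is easier. Dim probes limit the folds. After background subtraction, Slc46a3 kept a signal of 20.1 to 29.9 units and Slc5a5 one of 28.6 to 33.7 units, where the median local background was 20 to 26 units. Probe sequences were not used here, so cross-hybridisation between near-identical carriers was not checked.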
